A study of Mus musculus with 3 samples.

Results

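AP-1 and the immediate early genes were followed through the loss of Oct3/4 in mouse embryonic stem (ES) cells, self-renewing cultures from the early embryo with the capacity to form every tissue. The 10 genes were Jun, Junb, Jund, Fos, Fosl1, Fosl2, Atf3, Egr1, Ier2 and Ier3, out of 18193 genes to which the array annotation assigned at least 1 probe set of their own. Each probe set consists of several short probes to 1 or more transcripts. All 14 probe sets assigned to 1 of these genes alone were taken. There were 2 each for Jun, Jund, Fosl1 and Fosl2 and 1 each for the other 6 genes. Pou5f1, which encodes the pluripotency factor Oct3/4, was deleted conditionally, because cells that lack it for good cannot be maintained. Total RNA was hybridised to Affymetrix arrays, using a single array for each of 3 days of the knockout, labelled day 0, day 1 and day 2. All 3 samples are labelled as conditional knockout cells, day 0 included, while the sources used here do not state the number of clones or how the knockout was induced. No culture that kept Oct3/4 on day 1 or day 2 was analysed here, so the loss of Oct3/4, the time in culture and any inducing treatment cannot be told apart.

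AP-1 is a dimer of basic leucine zipper (bZIP) proteins. JUN proteins pair with each other or with FOS proteins, FOS proteins need a JUN partner, and some ATF proteins can also pair with JUN. Many of these genes are immediate early genes: growth factors, stress or fresh serum switch on their transcription within minutes without new protein being made, largely through the kinases ERK, JNK and p38 acting on factors such as the serum response factor, and their transcripts are short-lived. ERK signalling favours the exit of ES cells from pluripotency, forced Jun expression drives ES cells to differentiate, and mouse embryos that lack Junb or Fosl1 die with defects of placental or other extra-embryonic tissue.

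All values are array signals, and each difference is on the log2(signal + 55.9) scale. The added constant of 55.9 is the 40th percentile of all signals and marks the range where signals lie near background, and it understates the differences of dim genes. With 1 array per day there is no replicate error, no test and no p-value, and every difference describes these 3 arrays. As a measure of probe error, probe sets that share a gene differed by a pooled SD of 0.34 in log2 between day 0 and day 2, and of 0.30 for either single step (5906 genes). Among genes with a signal up to 507, such as Junb, Fos, Fosl2, Atf3, Egr1 and Ier3, these SDs were 0.415, 0.37 for the first step and 0.38 for the second. The variation among cultures and hybridisations is not part of them. Because these are RNA values of whole cultures, fewer expressing cells and less RNA per cell cannot be told apart.

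The arrays shared a 2% trimmed mean of 498 and had median signals from 83.5 to 92.5. Pou5f1 itself had signals of 2400, 40.8 and 15.5 at day 0, day 1 and day 2, which goes with the labels. Of 6 ES cell markers, 6 were at least 2-fold lower at day 2 than at day 0, and their summed signal was 88375, 61989 and 21422 in the order of the days. Of 6 trophectoderm markers (Cdx2, Gata3, Krt8, Krt18, Plac1 and Ascl2, genes of the outer layer of the early embryo) 6 were at least 2-fold higher at day 2, with summed signals of 7101, 10083 and 52211. None of these markers was at 0, and Gata3 at day 0 was the only trophectoderm marker below the constant on any of the arrays. The 8 fibroblast markers summed to 703, 655 and 478, with 4 to 5 of the 8 below the constant on each array; the fall was that of Thy1, and the other 7 summed to 303, 380 and 389. The 5 primitive endoderm markers summed to 393, 680 and 704, and the other 4 without Gata6 to 262, 222 and 246. What part these shifts in cell state have in the differences given here was not tested.

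Of the 10 genes 9 had a probe set with a mean signal of at least the constant, 12 of the 14 probe sets passed, and Fosl1 did not. A gene is represented here by its brightest probe set. At day 2 the genes ran from Jun, 4.87-fold above day 0, to Ier2, 3.37-fold below it, and 3 further genes, Jund, Fos and Atf3, lay just short of a 2-fold increase once the constant was added, their plain signal ratios being 2.02, 2.34 and 2.36. At least 2-fold higher was 1 of the 9 measured genes (Jun), where 5.25% of 12717 genes were, and at least 2-fold lower was 1 (Ier2), where 5.65% were. The median difference of the 9 was 0.68 in log2, against 0.05 for all genes. Above 0 lay 7 of the 9, and 54.1% of all genes; Junb and Ier3, the lowest of the 7, were at −0.08 and −0.03 with equal ribosomal protein medians. With 9 genes, a count of 1 cannot be set apart from these shares.

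**Figure D1:**
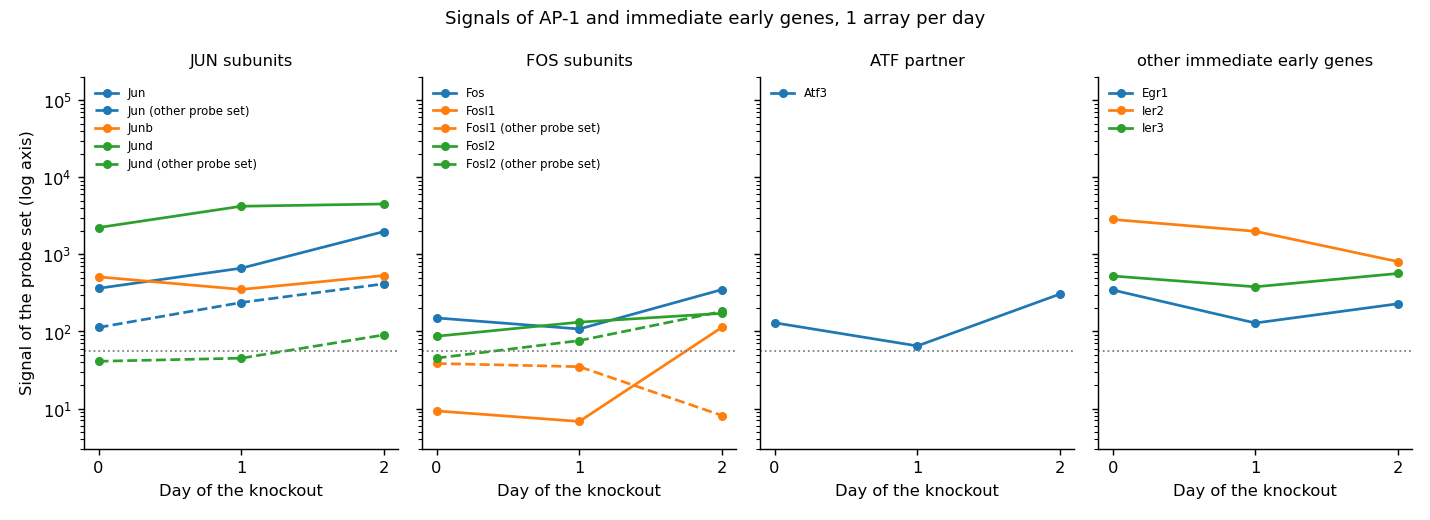
Signal of each probe set (vertical axis, log scale) at day 0, day 1 and day 2 (horizontal axis), in panels by role, with 1 array per day and no error bars. Solid lines are the probe set that represents a gene (for Fosl1, the brighter one on average), dashed lines the other probe set, and the dotted line is the constant of 55.9. Both Jun lines run upward from day to day, Ier2 runs downward, and Atf3 and Egr1 are lowest at day 1.

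Members of this family are known to bind their own promoters, and those of the 4 genes with a match to a motif searched are shown. All 4 lay above day 0 at day 2. So did the genes with a promoter and no match, Jund (0.999), Junb (0.05) and Ier3 (0.10). Egr1 and Ier2, the measured genes below day 0 at day 2, had no promoter to search, nor had Fosl1. Whether matches go with direction therefore cannot be told from these genes. RefSeq promoters of mouse build GRCm38.p6 matched 7 of the 10 genes, and the 250 bases before the start are printed, 5′ to 3′ on the gene's strand, with motif matches in capitals. They lie at chr4:95052223-95052472 (minus strand) for Jun, chr12:85473640-85473889 (plus strand) for Fos, chr1:191183334-191183583 (minus strand) for Atf3 and chr5:32136222-32136471 (plus strand) for Fosl2.
Jun: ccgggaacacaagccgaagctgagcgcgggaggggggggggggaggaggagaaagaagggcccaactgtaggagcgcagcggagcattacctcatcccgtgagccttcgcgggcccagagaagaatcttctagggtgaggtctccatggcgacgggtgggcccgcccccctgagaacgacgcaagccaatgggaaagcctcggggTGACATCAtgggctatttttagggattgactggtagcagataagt
Fos: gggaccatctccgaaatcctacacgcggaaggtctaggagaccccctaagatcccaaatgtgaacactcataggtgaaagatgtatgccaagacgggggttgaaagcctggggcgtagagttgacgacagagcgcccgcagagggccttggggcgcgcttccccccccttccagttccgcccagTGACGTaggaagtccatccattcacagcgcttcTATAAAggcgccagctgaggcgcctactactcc
Atf3: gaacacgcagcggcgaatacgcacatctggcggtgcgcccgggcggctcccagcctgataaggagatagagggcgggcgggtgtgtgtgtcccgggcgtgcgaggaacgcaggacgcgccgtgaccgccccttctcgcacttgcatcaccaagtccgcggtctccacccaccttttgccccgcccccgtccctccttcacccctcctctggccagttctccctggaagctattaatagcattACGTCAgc
Fosl2: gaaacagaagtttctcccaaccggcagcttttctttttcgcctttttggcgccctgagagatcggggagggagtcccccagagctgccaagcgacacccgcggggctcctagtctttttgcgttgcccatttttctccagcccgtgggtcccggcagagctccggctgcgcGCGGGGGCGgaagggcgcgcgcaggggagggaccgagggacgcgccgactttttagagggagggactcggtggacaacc

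In Jun the capitals mark TGACATCA, an octamer known as a JUN and ATF site of this promoter, 45 to 38 bases before the start, which 2.93% of 32851 promoter windows of the same length also hold. In Fos they mark TGACGT, the first 6 letters of the cyclic AMP response element (66 to 61 bases before the start), and a TATA box TATAAA (33 to 28). In Atf3 they mark TGACGT on the opposite strand, 8 to 3 bases before the start. TGACGT occurred in 6.47% of all windows and TATAAA in 12.4%. In Fosl2 they mark GCGGGGGCG, an EGR site (79 to 71 bases before the start), found with its other form GCGTGGGCG in 3.06%. Both strands were searched. The AP-1 site TGAGTCA or TGACTCA (4.46% of windows), the full response element TGACGTCA (1.55%, and it contains TGACGT), the CArG box of the serum response factor (1.47%) and the ETS core CCGGAA (12%) had no match in the windows of Jun, Junb, Jund, Fos, Fosl2, Atf3 and Ier3. Junb, Jund and Ier3 had no match to any motif searched. TGACGT and TGACATCA were added after the sequences had been read. A match describes letters and does not show a bound site. Bases more than 250 before the start were not searched, so the lack of a match does not show that a gene lacks the site.

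Among the JUN subunits, Jun was higher at each later day. Its brighter probe set gave signals of 363, 662 and 1983 on the successive days, and its dimmer one 113, 238 and 415. The 2 probe sets thus have the same order of days, and both lie above the constant on every array. The differences at day 1 were 0.78 and 0.80. At day 2 they were 2.28 and 1.48, a gap of 0.80 between probe sets that measure the same gene. Of all genes 47 had a larger difference at day 2 than the brighter probe set of Jun, and 626 at day 1. The second step, day 2 against day 1, was the larger for the brighter probe set (1.505) and not for the dimmer one (0.68).

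Jund, a JUN subunit that most tissues express, had signals of 2232, 4219 and 4518 in the order of the days. Nearly all of its difference was present at day 1 (0.90), with 0.10 between day 1 and day 2. At day 2 it stood 0.999 above day 0, below the 2-fold line by less than any error given here. Its other probe set was dim, with signals of 41.0, 45.0 and 90.3, and gave 0.06 at day 1 and 0.59 at day 2. The day 1 increase of Jund therefore rests on its bright probe set, and the mean over both probe sets was 0.48. Junb, which can restrain cell division and act against Jun, had signals of 511, 351 and 532. It was lower at day 1 (−0.48) and close to its day 0 value at day 2 (0.05, and −0.08 after scaling by ribosomal protein genes so that their medians matched).

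The FOS subunits had signals between 6.80 and 350. Fos had signals of 150, 108 and 350. It was 0.33 lower at day 1 and 1.31 higher at day 2 than at day 1, and 115 genes had a larger second step. Against day 0 it stood 0.98 higher at day 2, or 1.09 with a constant of 27.9. Fosl2 (Fra-2), which lacks the strong activation domain of Fos, had signals of 86.7, 132 and 172 in its brighter probe set and 45.1, 76.1 and 182 in the other. Both probe sets have the same order of days, with 0.40 and 0.39 at day 1 and 0.68 and 1.24 at day 2. Whether Fosl2 passed 2-fold thus differed between its probe sets, and their mean was 0.96.

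Fosl1 (Fra-1), the FOS subunit needed in extra-embryonic tissue, could not be resolved. One probe set had signals of 9.30, 6.80 and 114, and the other 38.4, 34.9 and 8.10. The first was above the constant at day 2 only, at the 55.3rd percentile of that array, and the second on none of the arrays. Their day 2 differences, 1.38 and −0.56, had opposite signs, so no direction is given for Fosl1.

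Atf3, a stress-induced bZIP protein that often represses transcription and can pair with JUN, had signals of 130, 64.9 and 306. Its day 1 signal was the lowest of the 3, close to the constant, and its day 2 signal the highest. It was 0.62 lower at day 1, then 1.58 higher at day 2 than at day 1, with 55 genes having a larger second step. Day 2 stood 0.97 above day 0, or 1.085 with a constant of 27.9.

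Of the immediate early genes outside AP-1, Ier2 and Egr1 lay below day 0 at day 2 and Ier3 close to it. Ier2, a nuclear protein induced by growth factors, had signals of 2843, 1996 and 805. It was lower at each later day, at −0.50 on day 1 and −1.75 on day 2, and 233 genes were lower still at day 2. Egr1, a zinc finger transcription factor and a standard readout of ERK signalling, had signals of 346, 129 and 229. It was the gene of the 10 furthest down at day 1, at −1.12, or −0.93 with a constant of 112, and 245 genes were lower at that day. At day 2 it had regained part of this, at −0.49 against day 0. Ier3, which takes part in cell survival and in ERK signalling, had signals of 525, 380 and 566. It was 0.41 lower at day 1 and 0.10 above day 0 at day 2, a sign that turned (−0.03) with equal ribosomal protein medians.

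**Figure D2:**
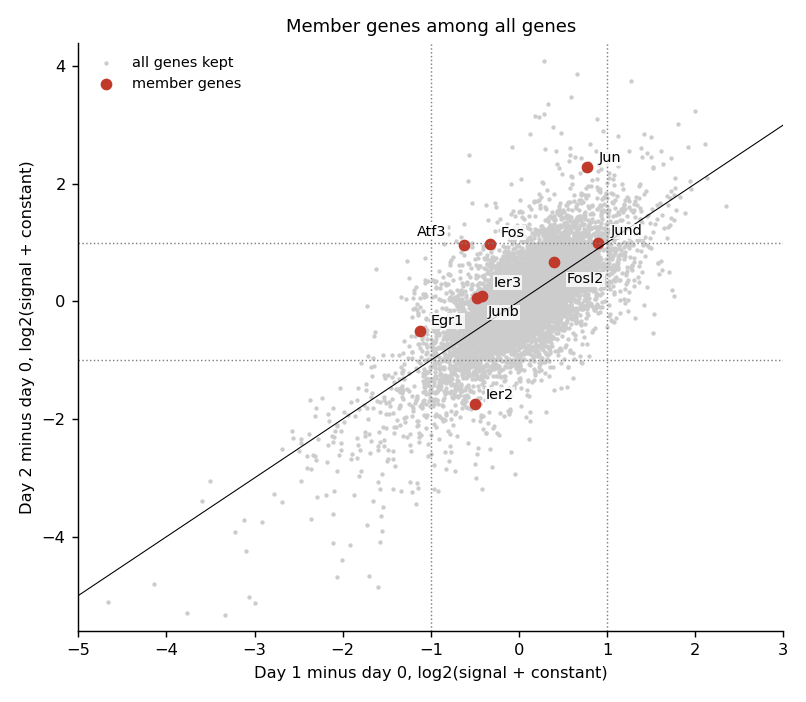
Difference at day 2 (vertical axis) against difference at day 1 (horizontal axis), both against day 0 on the log2(signal + constant) scale, for the 9 measured genes (red) and all 12717 genes kept (grey). Dotted lines mark 2-fold and the diagonal marks equal differences on both days; the axes share the day 0 array. Jun lies at 0.78 and 2.28, Ier2 at −0.50 and −1.75, and Atf3 and Fos lie left of 0 and just below the upper 2-fold line.

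The first and second days gave different pictures. At day 1 against day 0, 0 of the 9 genes were at least 2-fold higher, where 2.4% of all genes were, and 1, Egr1, was at least 2-fold lower, where 2.59% were. The median of the 9 was −0.41, against 0.04 for all genes, and 3 of them (Jun, Jund and Fosl2) lay above 0. At day 2 against day 1, 3 of the 9 (Atf3, Jun and Fos) were at least 2-fold higher, where 2.09% of all genes were, and 1 (Ier2) at least 2-fold lower, where 2.65% were. That median was 0.53, against 0.002 for all genes, and 8 of the 9 lay above 0. The 2 comparisons share the day 1 array, so an error in that array would move them in opposite directions.

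For 5 of the 9 genes, Junb, Fos, Atf3, Egr1 and Ier3, day 1 was the lowest of the 3 days. This held for 23.4% of all genes. Over the processing settings the count ran from 4 to 6 of the member genes measured. The step down ran from −1.12 in Egr1 to −0.33 in Fos, the last within the probe error of dimmer genes (0.37). The steps down of Ier3 (−0.41) and Junb (−0.48) were little beyond that error. The step up ran from 0.51 in Ier3 to 1.58 in Atf3. The pattern was noticed after the values had been seen. Jun, Jund and Fosl2 were higher at day 1 and again at day 2, and Ier2 was lower on both days. The dip rests on 1 array, and no second day 1 array was analysed here.

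**Figure D3:**
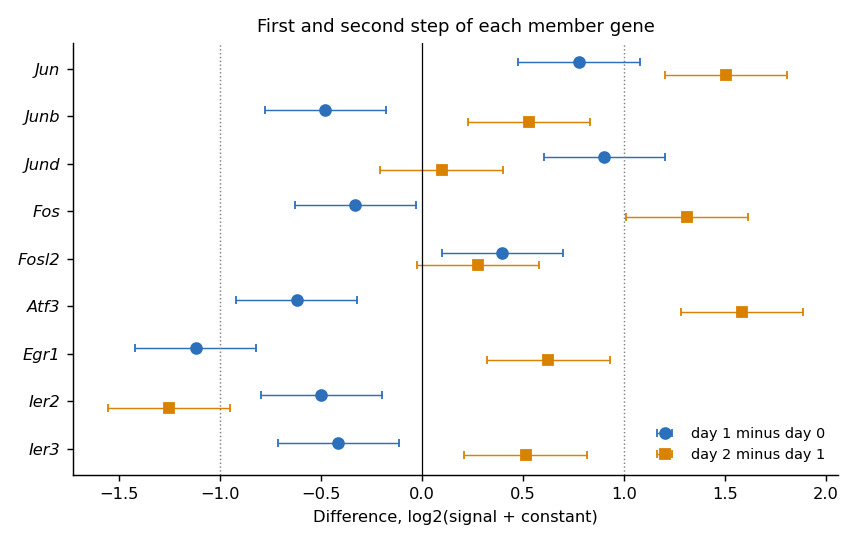
Difference of each measured gene from day 0 to day 1 (blue circles) and from day 1 to day 2 (orange squares) on the log2(signal + constant) scale, with bars of 1 pooled SD between probe sets (0.30 for each step) and dotted lines at 2-fold. The bars are too short for the dimmer genes Junb, Fos, Fosl2, Atf3, Egr1 and Ier3, whose SDs were 0.37 and 0.38. Junb, Fos, Atf3, Egr1 and Ier3 have a first step below 0 and a second step above 0.

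Relatives of these genes were compared through lists. Of 12 other genes of AP-1 related bZIP proteins, 11 had a probe set of their own and 9 were measured. Past 2-fold at day 2 were 3 upward and 2 downward of the 9, where 5.25% and 5.65% of all genes were, and the median was 0.48 against 0.05. Batf3, a JUN partner known from dendritic cells, had signals of 48.5, 172 and 458, the first below the constant, and was higher by 1.13 at day 1 (0.83 with a constant of 112) and 2.30 at day 2. The small MAF genes Mafk (1.46, signal 136 to 470) and Maff (1.24, signal 108 to 332) were higher too. Jdp2, a JUN dimerisation partner that represses AP-1 sites, was lower (−1.87), with signals of 524, 484 and 103, its difference falling between day 1 and day 2. Batf, a JUN partner of lymphocytes, had signals of 188, 18.0 and 13.6, so that it was below the constant from day 1 on. Its day 1 difference of −1.73 depended on the constant, from −2.24 with 27.9 to −1.21 with 112. Batf passed the filter only through its day 0 signal. With the filter at the 60th percentile of all signals the downward count was 1. Fosb and Maf were below the constant on average.

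Of 24 other immediate early genes 22 were measured, and at day 2 these held 10 past 2-fold upward and 3 downward, against 5.25% and 5.65% of all genes. The upward count was 7 with a constant of 112, where all genes had 472 instead of 668. It was also 7 with the filter at the 60th percentile of all signals, which measures fewer genes. Nr4a3 (25.0, 35.9 and 128) passed the filter used here only through its day 2 signal. The median was 0.63, and 17 of the 22 lay above 0. Rhob, a small GTPase of the actin and endosome system, was higher by 2.24 (signals of 965, 1891 and 4783). Klf6, a zinc finger factor, was higher by 2.07 (785, 1439 and 3464), although its 5 kept probe sets ran from 0.32 to 2.29. The secreted matrix protein gene Ccn1 (1.69) gave 0.75 once the _x_at, _s_at and _a_at probe sets, which can match several transcripts, had been removed. Gadd45b, a stress gene, was higher by 1.63, with its 3 kept probe sets from 0.48 to 1.76. The 3 lower genes were the orphan nuclear receptor gene Nr4a1 (−1.44, signal 1832 to 640), the kinase gene Sgk1 (−1.39, 9603 to 3632) and Klf10 (−1.38, 2186 to 806), a gene induced by TGF-beta. The increases of Egr3 (1.24), Nr4a3 (1.18) and Egr4 (1.17) were under 2-fold with a constant of 112, and their signals at day 0 lay below 55.9; these 3 were named after their values had been seen.

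At day 1 this list had 0 genes past 2-fold upward and 1 downward, where 2.4% and 2.59% of all genes were. The 1 gene was Myc (−1.62), with signals of 1165, 341 and 1745, which was also named after its values had been seen. Day 1 was the lowest day in 5 of the 22, or 22.7%, beside the 23.4% of all genes and the 5 of 9 member genes. The difference between the lists was not tested. Early growth response genes also differed in direction: Egr3 and Egr4 were above day 0 at both later days, Egr1 below it at both. The day 0 signals of Egr3 (32.9) and Egr4 (19.1) lay below the constant, and Egr4 at day 1 (59.9) was close to it. Egr2 was below the constant on average.

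**Figure D4:**
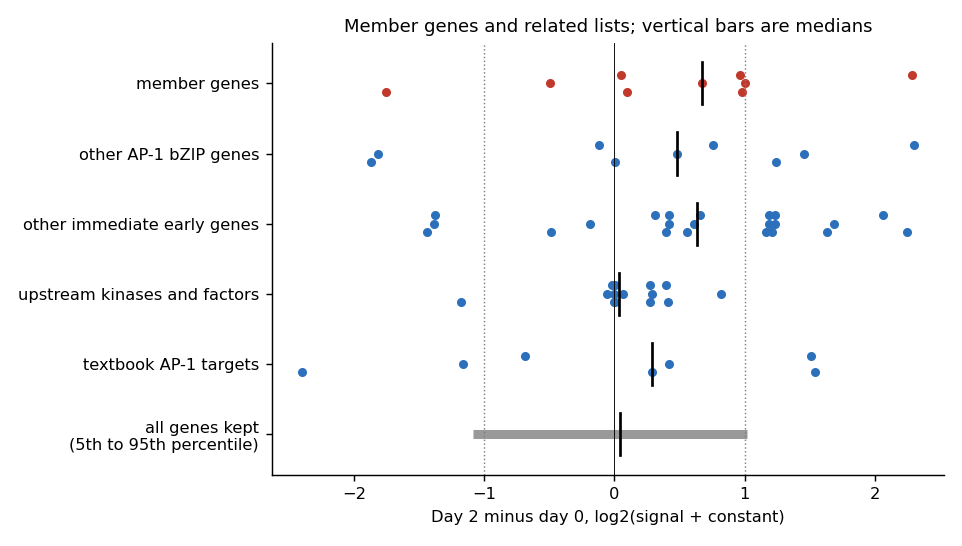
Difference of day 2 against day 0 (horizontal axis, log2 scale with constant) for each measured gene (points) of the 9 member genes and the 4 related lists, with list medians as black bars; the vertical scatter within a row has no meaning. The grey bar is the 5th to 95th percentile of all genes kept, and dotted lines mark 2-fold. The medians of the member genes (0.68) and of the other immediate early genes (0.63) lie to the right of that of all genes (0.05), and that of the upstream kinases and factors (0.04) beside it.

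Genes that act upstream of AP-1 mostly lay within 2-fold of day 0. Of 19 kinases and transcription factors of the ERK, JNK and p38 pathways, 14 were measured. Past 2-fold at day 2 were 0 upward and 1 downward, near the 5.25% and 5.65% of all genes. The 1 gene was the ETS factor gene Elk3 (−1.18, and −0.67 as the mean over its 4 kept probe sets). The median was 0.04 at day 2 and 0.10 at day 1, against 0.05 and 0.04 for all genes. At day 1, 13 of the 14 lay above 0, where 55.3% of all genes did. With equal ribosomal protein medians the day 1 median was −0.06, and that of all genes −0.10. Srf, the gene of the serum response factor, was at 0.27, the MEK1 gene Map2k1 at −0.01, and the MRTF-B gene Mrtfb, a partner of the serum response factor, at 0.82, the highest of the 14. The JNK genes Mapk8 and Mapk9 were at 0.01 and −0.003 and the p38 gene Mapk14 at 0.39, while the 5 kept probe sets of Mapk8 ran from −0.69 to 0.18 and the 6 of Mapk14 from −0.23 to 0.60. These are RNA levels and do not show the activity of the kinases, which is set by phosphorylation. Srf, Map2k1, Mrtfb, Mapk8, Mapk9 and Mapk14 were named for their place in the pathway after their values had been seen.

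Textbook target genes of AP-1 differed in direction. Of 12 targets 7 were measured, and day 2 had 2 of them past 2-fold upward and 2 downward, where 5.25% and 5.65% of all genes were. Hmox1, heme oxygenase, was higher by 1.51 (1257, 1772 and 3676). Cd44, the hyaluronan receptor, had signals of 13.1, 75.5 and 145, the first far below the constant. Its difference of 1.54 ran from 1.04 to 2.07 with the constant, and its 2 probe sets gave −0.19 and 0.93 at day 1. Ccnd1, the cyclin of the G1 phase, was lower, at −2.40 (2061, 1361 and 345), as was Tgfb1, at −1.17 (265, 144 and 86.9), or −0.92 with a constant of 112. The median of 0.29 turned to −0.69 with the filter on dim probe sets at the 60th percentile of all signals and to −0.07 without a filter.

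The genes nearest to Jun in their pair of differences at day 1 and day 2, by straight-line distance over the 3 arrays, were Efhd2 (0.74 and 2.23, distance 0.06), Rhox9 (0.79 and 2.35, distance 0.07) and Dusp8 (0.69 and 2.18, distance 0.13). Nearest to Ier2 were Syndig1 (distance 0.04), Mme (0.04) and Igll1 (0.06). Within a distance of 0.5 lay 49 genes for Jun (0.386% of the other genes) and 157 for Ier2 (1.24%).

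Another processing of the arrays left most of these values in place. The difference of Jun at day 2 ran from 1.88 to 2.36 over the settings tried and that of Ier2 from −1.89 to −1.69, both past 2-fold in each. Jund (0.80 to 1.03), Fos (0.82 to 1.09) and Atf3 (0.79 to 1.085) crossed the 2-fold line, so the count of higher genes was 1 to 4 of those measured. Scaling to equal ribosomal protein medians moved the median of all genes from 0.05 to −0.08 at day 2 and from 0.04 to −0.10 at day 1. The split of all genes, 668 higher and 718 lower at day 2 and 305 and 330 at day 1, was then 520 and 876 at day 2 and 189 and 457 at day 1.

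**Figure D5:**
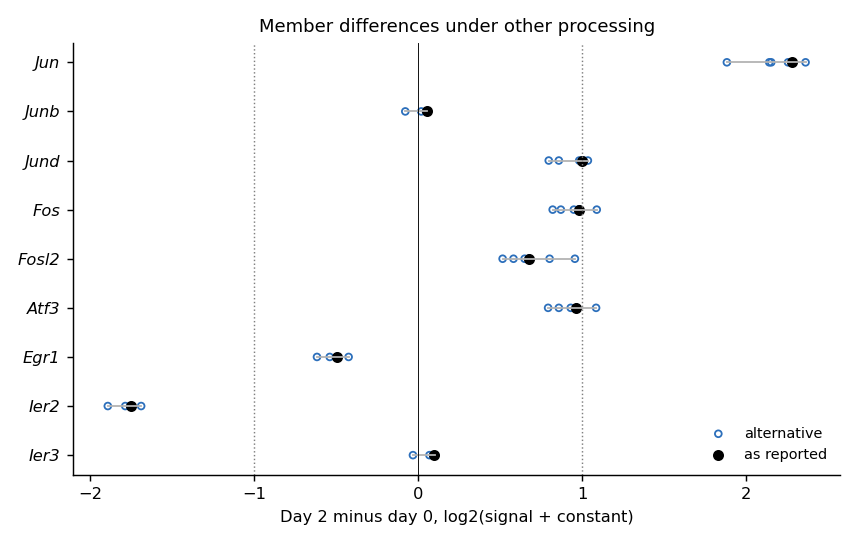
Difference of day 2 against day 0 (horizontal axis, log2 scale with constant) of each measured gene as reported (black) and under each other processing setting (open blue circles), with grey lines joining the lowest and highest value and dotted lines at 2-fold. Jun and Ier2 lie beyond 2-fold in all settings, and Jund, Fos and Atf3 lie on both sides of the upper line.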

How the data were processed

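The submitters' processing notes name MAS5 without a version. The authors deposited linear array intensities, 1 signal per probe set and array. Python 3.11.15, numpy 2.4.6 and pandas 2.3.3 were used here. The 64 control probe sets with values in the day 2 column only were left out, leaving 45037; whether that array was processed apart is unknown. Arrays were scaled to a common 2% trimmed mean, and log2(signal + 55.9) was taken. Probe sets with a mean signal of at least 55.9 were kept (26925). The platform annotation named 1 gene for 34945 probe sets, several for 932 (not used for any gene) and none for 9160. The kept probe set with the highest mean represents a gene (12717 genes). Calls are a size rule of 2-fold, with no test. The number of arrays limits the precision. The code was tested on simulated data.

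Members and lists were chosen with earlier results of these data known. Named genes are Pou5f1, the 10 members, up to 4 genes in each direction of each list past 2-fold, and the 3 genes nearest to the highest and the lowest member; others are marked as chosen after their values were seen. List genes without a probe set of their own are not analysed here. Alternatives changed the constant, the scaling, the filter and the probe set that stands for a gene.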

Additional observations from a re-analysis of the deposited data

How the results depend on the processing

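For the 9 measured members, 231 values of single differences kept their side of the 2-fold line under an alternative. Those of them under 2-fold as reported also moved by no more than the spread between probe sets. Of the other values 4 passed the line, 1 no longer did, and 1 under 2-fold moved by more than that spread. None past 2-fold changed sign. The size of a move was not limited for values past 2-fold: Jun at day 2 went from 2.28 to 1.88 with means over probe sets, where the SD was 0.34. With a constant of 27.9, 4 members were at least 2-fold higher at day 2 against day 0, and the counts of higher genes were 1 for other immediate early genes and 1 for AP-1 targets at day 1, 2 for other AP-1 genes from day 1 to day 2, and 469 of all genes at day 1. With 112, 0 members were lower and 0 other AP-1 genes higher at day 1, 1 target and 0 upstream genes were lower at day 2, and all genes numbered 146 higher at day 1, and 157 higher and 184 lower from day 1 to day 2. Quantile normalisation gave 2 higher members at day 2 and 2 higher other AP-1 genes from day 1 to day 2. Equal ribosomal protein medians gave at day 1 1 higher other AP-1 gene, 2 lower other immediate early genes and 189 higher of all genes. With no filter, 2 members were higher at day 2, the added one being Fosl1 through 1 of its 2 probe sets, which had opposite signs, 2 other immediate early genes were lower at day 1, and the target medians were 0.24 at day 1 and −0.0725 at day 2. The filter at the 60th percentile gave 202 higher of all genes and 0 lower other AP-1 genes at day 1, and 1 lower other AP-1 gene, 1 higher target and a target median of −0.69 at day 2. Means over probe sets left 0 upstream genes lower at day 2 against day 0 or day 1. With the _x_at, _s_at and _a_at probe sets removed, other AP-1 genes had 1 lower at day 2 and 0 from day 1 to day 2, other immediate early genes 0 lower at day 1, and the target medians were 0.0334 at day 1 and −0.14 at day 2. Where a count moved with a filter or with fewer probe sets, fewer or more genes were measured by construction; the cause of the other moves was not tested. No paired analysis was possible because each day has 1 array. Signals near the constant limit what can be said of Fosl1, Batf, Batf3, Cd44, Egr3, Egr4 and Nr4a3. The same holds for Atf3 at day 1 and for the dimmer probe sets of Jund and Fosl2.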
